A study of Mus musculus with 19 samples.

Results

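The class II myosin heavy chains were examined in mouse C2C12 myoblasts, a cell line derived from skeletal muscle, and in mouse soleus muscle. The 9 genes are Myh1, Myh2, Myh3, Myh4, Myh6, Myh7, Myh8, Myh9 and Myh10, and every probe that carries 1 of these names in the scanner files was taken, giving 23 of 41174 probes and 9 of 27793 gene names. RNA was measured on 19 one-colour Agilent arrays, 1 per sample. C2C12 cells carried either empty plasmids (WT, n = 6) or plasmids for human wild-type HDAC4, in pIRES neo3, and HDAC5, in pIRES hyg3 (HDAC4&5, n = 6). Both kinds of cell had been selected in Hygromycin B and Geneticin, each at 500 µg/ml, and both were collected 48 h after seeding. Soleus muscle came from male C57BL6J mice at 12 weeks of age, fasted for 5 h, that were either db +/+ (db, n = 4) or heterozygous db -/+ littermates (Con, n = 3). The db mutation lies in the gene of the leptin receptor and is carried by every tissue. Whether the 6 cultures of a group came from 1 selected line or several is not given in the sources used here, so the p-values for cells measure the spread between cultures. The study's methods state fewer biological replicates per group than there are arrays of cells here, so some of these arrays may share a biological replicate, and the p-values for cells would then be too small.

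A myosin heavy chain is the motor of the thick filament: its head binds actin and splits ATP, and its long tail pairs with a second chain and packs into a filament. The sarcomeric genes are used in turn during muscle life. Myh3 (embryonic) and Myh8 (perinatal) come first in development and return in regenerating fibres, while adult fibres are typed by Myh7 (slow type I), Myh2 (fast IIa), Myh1 (fast IIx) and Myh4 (fast IIb). Myh6 is the alpha chain of the heart. Myh9 and Myh10 encode the non-muscle IIA and IIB chains, which drive contraction of the actin cortex in most cells. In the mouse, soleus is rich in type I and IIa fibres. Class IIa histone deacetylases, which include HDAC4 and HDAC5, bind the MEF2 transcription factors of muscle.

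Cells overexpressing HDAC4 and 5 had signals at or near background for Myh3, Myh1 and Myh8. The Myh8 reading rests on 1 of its 4 probes, as the others were at or near background in WT cells too. HDAC4&5 cells had about 3 times the WT signal for Myh7 and 1.5 times that for Myh10. Myh9, mostly saturated, was not called. No heavy chain passed the test in db soleus muscle, where the embryonic Myh3 probes were higher on every db array read than on any Con array, and 1 of the 2 probes of the fast IIb Myh4 was lower. Probes of Myh1, Myh2, Myh4 and Myh7 were far brighter in control soleus muscle than in control C2C12 cells, as were those named Myh6 and 1 of 4 named Myh8, whose targets in muscle were not tested.

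The labels were set against marker genes of each tissue. Of 10 skeletal muscle fibre markers, all were well above background throughout the soleus arrays and 9 throughout the WT cell arrays, but only 3 throughout the HDAC4&5 arrays, where Ckm and Tnni1 were on none. Of 6 myoblast markers, 4 were well above background throughout the WT arrays (not Myf5 and Pax7) and 2 throughout the HDAC4&5 arrays, where Myf5, Myod1 and Pax7 were on none, so the name myoblast goes against these markers in the HDAC4&5 cells. The mouse probe for Hdac5 lay between 1.88 and 2.73 on WT arrays and between 2.77 and 4.40 on HDAC4&5 arrays, in log2 units relative to the 75th percentile of each array, and the mouse Hdac4 probe overlapped between these groups. Both transgenes are human, so these mouse probes are a weak check. Brightness differed between arrays, with 75th percentiles of 564.3 to 1691.3 in WT cells, 493.8 to 872.7 in HDAC4&5 cells, 153.4 to 555.1 in Con muscle and 179.7 to 686.4 in db muscle. The soleus arrays lay on 2 slides, with 2 Con and 2 db arrays on slide 4 and 1 Con and 2 db arrays on slide 5, and the 3 arrays of slide 5 were the brighter ones.

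All probes are 60 bases long, and 17 of the 23 lie on chromosome 11, 4 on chromosome 14 and 2 on chromosome 15 in the mm9 coordinates of the files. A total of 4 probes cross a splice junction. Heavy chain genes are close relatives, so the probes of different genes were laid over each other. Among 232 such pairs, the longest run of identical bases was 19, between a Myh1 probe and a Myh8 probe. This pair is shown because the values of Myh8 rest on the second of these probes, and the shared run is in capitals.
Myh1 A_51_P192042, chr11:67037938-67037997, plus strand: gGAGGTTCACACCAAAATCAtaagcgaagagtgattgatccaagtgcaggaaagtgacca
Myh8 A_51_P143296, chr11:67121925-67121984, plus strand: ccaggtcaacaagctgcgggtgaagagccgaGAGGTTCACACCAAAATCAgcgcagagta

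The next longest run between probes of different genes was 12 bases. The soleus results turn on Myh3 and Myh4, and a probe of each can be laid over the other along 37 bases. Both are shown with the 28 identical bases of that overlay in capitals.
Myh3 A_52_P247953, chr11:66914684-66914888, plus strand, across a junction: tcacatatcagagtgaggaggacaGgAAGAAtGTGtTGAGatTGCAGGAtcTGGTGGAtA
Myh4 A_52_P602147, chr11:67072804-67072863, plus strand: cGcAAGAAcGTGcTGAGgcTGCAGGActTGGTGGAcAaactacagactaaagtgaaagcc
The other Myh3 probe has 40 identical bases with this Myh4 probe in an overlay of 55. It overlaps the first Myh3 probe by 32 bases, here in capitals.
Myh3 A_51_P167668, chr11:66914857-66914916, plus strand: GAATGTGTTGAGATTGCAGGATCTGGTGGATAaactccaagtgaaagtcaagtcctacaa

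Values below are log2 of the processed signal minus the 75th percentile of the array, and a difference of 1 is a 2-fold change. Differences were tested with limma across all probes that were well above background throughout 1 or both of the groups, and calls were made at a Benjamini-Hochberg adjusted p under 0.05. Levels of different probes are not compared with each other, because brightness also depends on the probe.

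**Figure D1:**
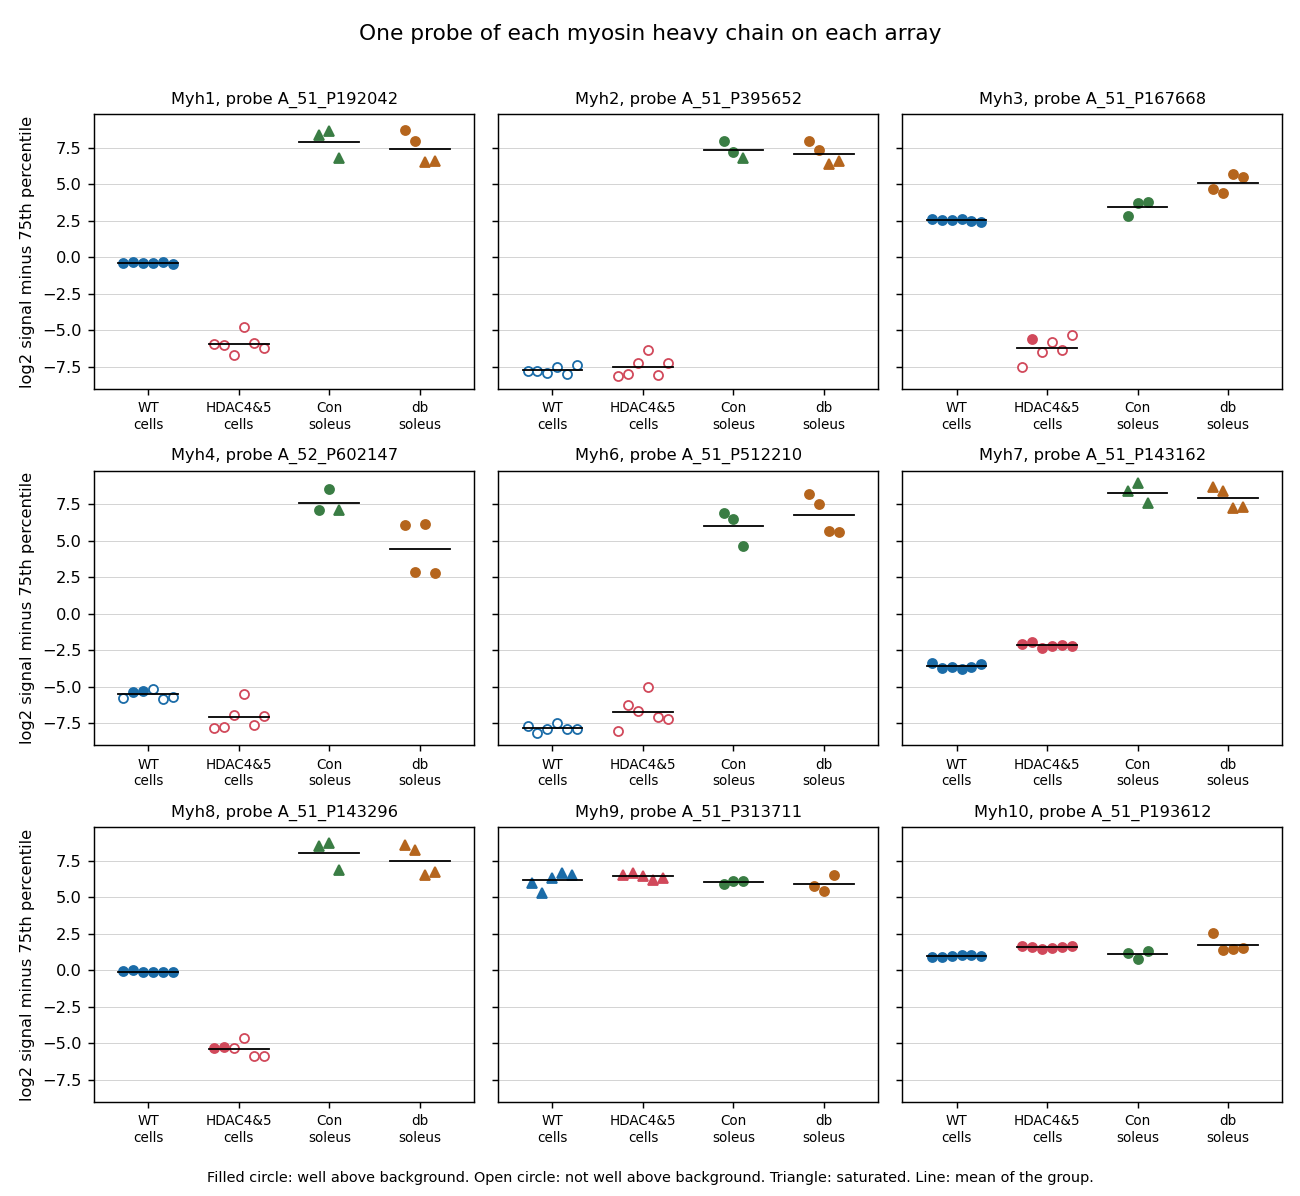
One probe of each heavy chain on each array of the 4 groups, picked by hand among the bright probes of the gene (for Myh7 the one saturated on all soleus arrays); the y axis is log2 signal minus the 75th percentile of the array, open circles are arrays not well above background, triangles are saturated spots and lines are group means. The Myh3, Myh1 and Myh8 probes shown fall from well above to near background between WT and HDAC4&5 cells. The Myh9 probe, saturated on 5 arrays of each group of cells, lies between 5.31 and 6.68 in all groups.

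The first comparison addressed which heavy chains differ when HDAC4 and 5 are overexpressed in myogenic cells. Of the 10 probes tested, from 6 genes, 8 were called, 4 higher and 4 lower in HDAC4&5 cells. Over all 21478 probes tested, 68.3% were called, 36.5% higher and 31.8% lower, and in 52.5% the groups did not overlap, and with the slide as a block 76.7% were called, so that a call by itself sets no probe apart here. The 13 other member probes were dim on at least 1 array of both groups and were not tested.

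Among the developmental chains, Myh3 was the brightest change. Probe A_51_P167668 lay between 2.41 and 2.63 (median 2.56) on the 6 WT arrays and between -7.51 and -5.34 (median -6.09) on the HDAC4&5 arrays, only 1 of which was well above background. The difference was -8.73 (SE 0.291, adjusted p = 1.63e-11). With dim arrays set to the lowest signal that was well above background on them, the ratio was 238-fold. Probe A_52_P247953 lay between 1.89 and 2.07 (median 2.00) in WT cells and was well above background on no HDAC4&5 array, so it was at least 165-fold lower (adjusted p = 1.77e-12). Both probes thus separated the groups with no overlap, and the differences within the 3 slides ran from -9.14 to -8.31 for the first and from -9.28 to -8.39 for the second.

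Myh8, read by the probe A_51_P143296, lay between -0.141 and 0.044 (median -0.123) in WT cells and between -5.85 and -4.61 (median -5.32) in HDAC4&5 cells, where 2 of 6 arrays were well above background. The groups did not overlap, and the difference was -5.29 (SE 0.175, adjusted p = 1.55e-11), or 34.5-fold with dim arrays set to their lowest measurable signal. The remaining 3 Myh8 probes were not tested, being well above background on no HDAC4&5 array and on at most 1 WT array. The gene name therefore rests on 1 of 4 probes in cells, and what this probe binds there was not tested.

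Of the adult fast chains, Myh1 was read in WT cells by the probe A_51_P192042, at -0.448 to -0.327 (median -0.380), and was well above background on no HDAC4&5 array. It was at least 31.9-fold lower there (adjusted p = 2.09e-10). The second Myh1 probe, A_51_P364788, lies across a junction further 5′ and was well above background on only 3 WT arrays, so it did not enter the test. Myh2 and Myh4, the IIa and IIb chains, did not enter it either. Their 6 probes were well above background on 0 to 5 of the WT arrays, at intensities that reached 54.6, and on 0 to 3 of the HDAC4&5 arrays.

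Myh7, the slow type I chain, went the other way. Probe A_51_P143162 lay between -3.80 and -3.37 (median -3.64) in WT cells and between -2.37 and -1.93 (median -2.17) in HDAC4&5 cells, a rise of 1.44 (SE 0.0889, adjusted p = 8.62e-09), or 2.72-fold. Probe A_52_P88033, which shares 55 of its bases with the first and is no independent reading, rose by 1.57 (SE 0.0988, adjusted p = 1.06e-08), or 2.98-fold. The groups did not overlap on either probe. The signal was low in both, at 54.4 to 135.1 intensity units in WT and 108.3 to 196.7 in HDAC4&5 cells on the first probe. Neither Myh6 probe, for the cardiac alpha chain, was well above background on any cell array.

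The non-muscle chains were well above background in all cells. Myh10 rose on both of its bright probes. Probe A_51_P193612 lay between 0.936 and 1.04 (median 0.981) in WT cells and between 1.48 and 1.67 (median 1.60) in HDAC4&5 cells, a difference of 0.60 (SE 0.0477, adjusted p = 1.20e-07). Probe A_52_P680681 differed by 0.63 (SE 0.055, adjusted p = 3.20e-07), and the rise of each was 1.51-fold and 1.54-fold. The third Myh10 probe, drawn from a cDNA clone, was well above background on no array of any group. Myh9 was not called. Its bright probe A_51_P313711 was saturated on 5 WT and 5 HDAC4&5 arrays, which leaves little room for a difference to show (0.27, SE 0.226, adjusted p = 0.310). The dimmer A_52_P130899, designed on an Ensembl transcript, differed by -0.14 (SE 0.222, adjusted p = 0.583). Blocking on replicate number left this last difference at the same size and took it past the threshold (SE 0.0541, adjusted p = 0.0436).

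**Figure D2:**
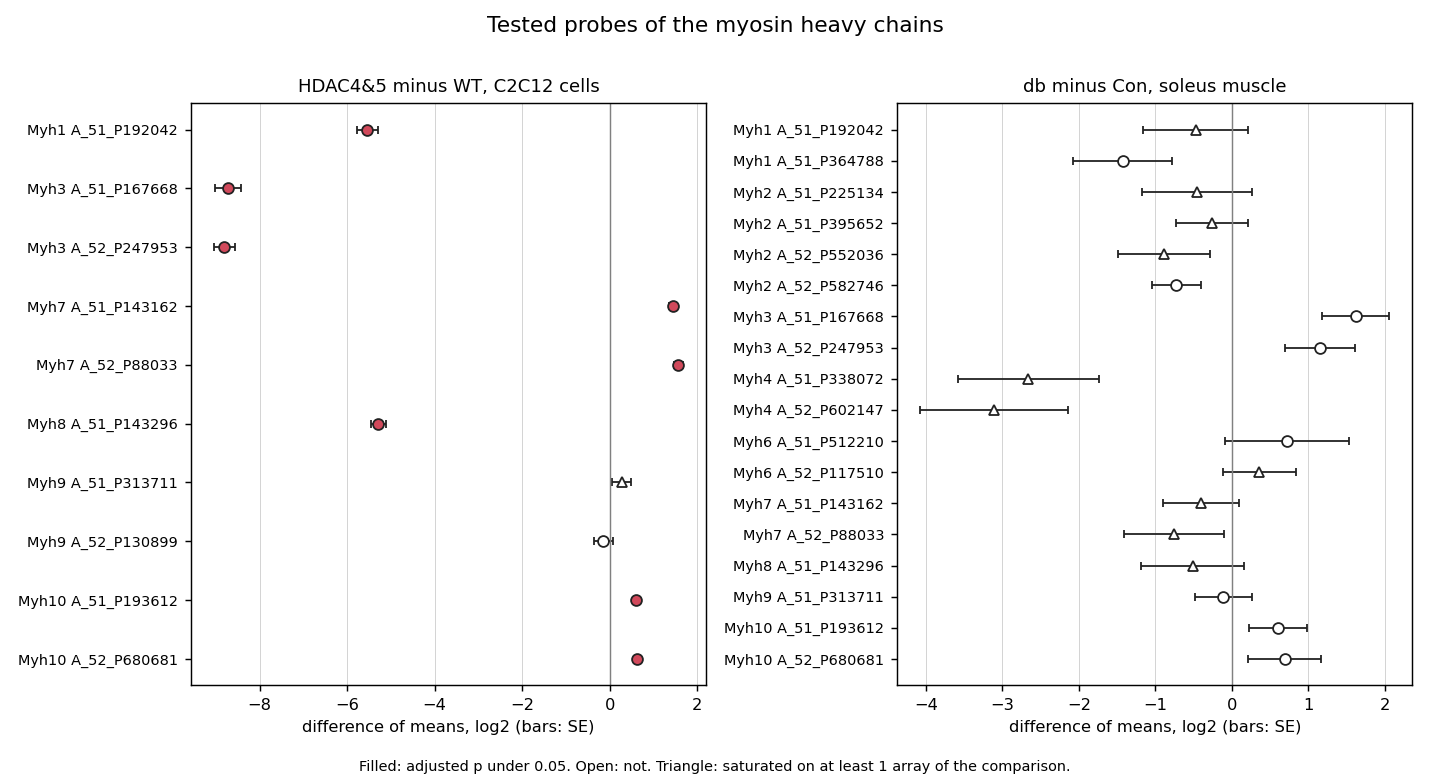
Difference of group means for every tested probe, on a log2 axis with bars of 1 SE, for HDAC4&5 minus WT cells (left) and db minus Con soleus (right); filled points passed an adjusted p of 0.05 and triangles mark probes saturated on at least 1 array. On the left 8 of 10 points are filled, from -8.81 for Myh3 to 1.57 for Myh7, and on the right none of 18.

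The promoters of the members were read from RefSeq windows of GRCm38.p6, from 250 bases before to 50 after the start of each gene, which matched all 9 genes with 10 windows. Motifs were searched on both strands: the E-box CANNTG, the MCAT element with letters CATTCC, the TATA box TATAAA, and the MEF2 site and CArG box by name. The MEF2 site was found in the windows of Myh1, Myh4 and Myh8, beginning 211, 182 and 99 bases before the start, and in 3.19% of all 32851 windows. The TATA box was found in 7 of the 10 windows, against 13.6% of all, but in Myh1, Myh4 and Myh8 1 of the matches lies inside the MEF2 site on the other strand. For Myh8 it is the only match. Matches began 32, 29 and 31 bases before the start in Myh1, Myh3 and Myh4. In Myh9 the match began 123 bases before the start, and in Myh2 and Myh6 after it. An E-box was found in 8 windows, against 72.3% of all, MCAT in 5, against 14.7%, and the CArG box in 1, that of Myh4, against 1.63%. The stretches around the MEF2 site are shown because 15 bases that include it are shared by the 3 genes, and the site is in capitals.
Myh1, chr11:67199861-67199950, plus strand: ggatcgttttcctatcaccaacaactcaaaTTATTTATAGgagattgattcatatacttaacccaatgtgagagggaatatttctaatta
Myh8, chr11:67276995-67277084, plus strand: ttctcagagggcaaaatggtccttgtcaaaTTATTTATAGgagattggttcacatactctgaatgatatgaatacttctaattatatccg
Myh4, chr11:67237600-67237689, plus strand: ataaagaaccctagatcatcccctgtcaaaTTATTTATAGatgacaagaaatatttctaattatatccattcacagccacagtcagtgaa
Of these genes, Myh1 and Myh8 were lower in HDAC4&5 cells, each on 1 probe, while Myh4 was too dim in cells to be tested. The window of Myh3, which fell in cells, held no match to the MEF2 site. Its last 90 bases before the start are shown with the TATA box in capitals.
Myh3, chr11:67078210-67078299, plus strand: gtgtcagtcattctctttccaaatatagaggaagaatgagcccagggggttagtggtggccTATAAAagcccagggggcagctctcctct
These matches describe letters in a window and say nothing of binding in these cells.

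The partners of the heavy chains were counted on lists of their own. Of 15 tested probes for myosin light chains, which wrap the neck of the head, 10 were lower and 1 higher in HDAC4&5 cells, with a median difference of -1.92 against 0.055 over all probes tested, 36.5% of which were higher and 31.8% lower. Falls were seen in Myl1, the fast essential chain (-11.12, SE 0.534, on a probe still well above background on 2 HDAC4&5 arrays, and at least 177-fold lower on another) and Myl3, the slow essential chain, at least 119-fold lower, and the rise was in Myl6b (0.32, SE 0.0591). A second Myl3 probe was not called, at 0.73 (SE 0.357, adjusted p = 0.0854). All 18 tested probes for thick filament binding and M-band proteins were lower, with a median of -4.36. They included Ttn, the giant spring that holds the thick filament in place, at least 212-fold lower, and Mybph, a binding protein of the thick filament (-8.30, SE 0.496, on a probe well above background on 2 HDAC4&5 arrays, and at least 174-fold lower on the other). Under the normexp background correction 7 probes of this list were called. Of 11 probes for chaperones and assembly factors 7 were lower and none higher (median -0.59), a share of calls near that of all probes. They included the ubiquitin ligase Trim54 (-8.47, SE 0.144), the myosin chaperone Unc45b (at least 24.5-fold lower) and the ubiquitin ligase Trim63 (-2.70, SE 0.143). Kinases and phosphatases of the light chains were split, with 3 of 15 higher and 3 lower (median -0.017). Mylk2, the kinase of skeletal muscle, fell by 8.45 (SE 0.108). Mylk4 was at least 1.79-fold lower, and Rock2 fell by 0.85 (SE 0.0422). Mylk, the kinase of smooth muscle and non-muscle cells, rose on both probes (2.98, SE 0.160 and 2.27, SE 0.114), as did the phosphatase subunit Ppp1r12a on 1 (0.63, SE 0.0586). Of the heavy chains beyond the 9, only Myh14 was tested, and it was lower (-0.92, SE 0.118), though not called under normexp. Adjusted p for the called probes named here ran from 3.72e-15 (Mylk2) to 3.65e-04 (Myl6b).

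The second comparison asked which heavy chains differ in the soleus of obese db mice. None of 18 tested probes was called, against 0.00539% of all 18540 tested probes. An unadjusted p under 0.05 was reached by 4 probes (6.44% of all), the 2 of Myh3 and the 2 of Myh4, and in 6 the groups did not overlap (10.4% of all), although for Myh4 A_51_P338072 this rests on saturated spots. With the slide as a block no member was called either, against 0.156% of all probes. Fewer fibres of a type and less RNA per fibre cannot be told apart in whole muscle.

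Myh3 read higher in db muscle without passing the test. On the probe A_51_P167668 the Con arrays read 2.82, 3.73 and 3.77 and the db arrays 4.69, 4.37, 5.68 and 5.50. Every db array was above every Con array, by a mean of 1.62 (SE 0.436, adjusted p = 0.565), or 3.07-fold. An exact permutation test of this probe alone gave p = 0.0571 (two-sided), the smallest that 3 against 4 arrays allow. The difference was 1.25 within slide 4 and 1.82 within slide 5, and with the slide as a block it was 1.48 (SE 0.284, adjusted p = 0.0997). On the overlapping probe A_52_P247953 the Con arrays read 2.55, 3.19 and 1.72 and the db arrays 3.90, 3.21 and 3.80, the spot of the remaining db array being left out as an outlier. The groups were only just apart, and the difference was 1.15 (SE 0.457, adjusted p = 0.761), with 0.69 within slide 4 and 2.08 within slide 5.

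Myh4 read lower in db muscle, also without passing the test, and varied widely among the mice. On the probe A_52_P602147 the Con arrays read 7.11, 8.54 and 7.07, with the last saturated, and the db arrays 6.06, 2.88, 6.15 and 2.79. As intensities these were 26059, 56958 and 74618 against 11964, 1700, 48605 and 4372. Every db array was below every Con array, but the db mice lay in pairs, with db replicates 1 and 3 near the Con mice and db replicates 2 and 4 a further 3 log2 units down. The mean difference was -3.11 (SE 0.965, adjusted p = 0.637), and it was -3.36 within slide 4 and -2.60 within slide 5. The probe A_51_P338072 read 7.32, 8.54 and 6.72 in Con and 6.17, 2.60, 6.32 and 4.36 in db muscle, with the third array of each saturated, a difference of -2.66 (SE 0.920, adjusted p = 0.678). The order of these saturated arrays on this probe could not be read.

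Of the 10 fibre markers, Pvalb and Actn3, picked after their values were seen, were lowest on the same db arrays as Myh4. The fast markers Tnnt3 and Tnni2 were too bright to be read for this. Pvalb, a calcium buffer of fast fibres, read 4.37, 5.48 and 6.28 in Con and 4.00, 1.56, 5.34 and 2.93 in db muscle. Actn3, the Z-disc actinin of fast fibres, read 3.87, 4.42 and 4.94 in Con and 3.61, 1.28, 3.19 and 1.81 in db muscle. Db replicates 2 and 4 were lowest on both. Among Con mice replicate 3 was highest on both, but it was saturated on both Myh4 probes, so its rank on Myh4 could not be read. Tnnt3, the fast troponin T, read 8.18, 8.46, 6.58 and 6.82 in db muscle. The Myh8 probe A_51_P143296, saturated on all these arrays, read 8.58, 8.24, 6.53 and 6.70. Tnni2 read 8.09, 6.47 and 6.67 on db replicates 2, 3 and 4, with db replicate 1 left out as an outlier. A fall of Tnnt3 or Tnni2 could therefore not be read at this height. Ckm, Mb and Tnni1, read on every db array, were lowest on db replicates 3 and 4. All 10 fibre markers were well above background on all 7 arrays, and their mean was 6.40 to 7.26 on Con arrays and 5.74 to 6.28 on db arrays. Outlier spots were left out of these means, so the arrays average different genes. Acta1, Tnni2 and Tnnt1 were missing on db replicate 1, Casq1 on db replicates 3 and 4, and Ckm on Con replicate 2. The Con and db ranges can therefore not be compared. The part of the fibre markers in the Myh4 result was not tested.

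**Figure D3:**
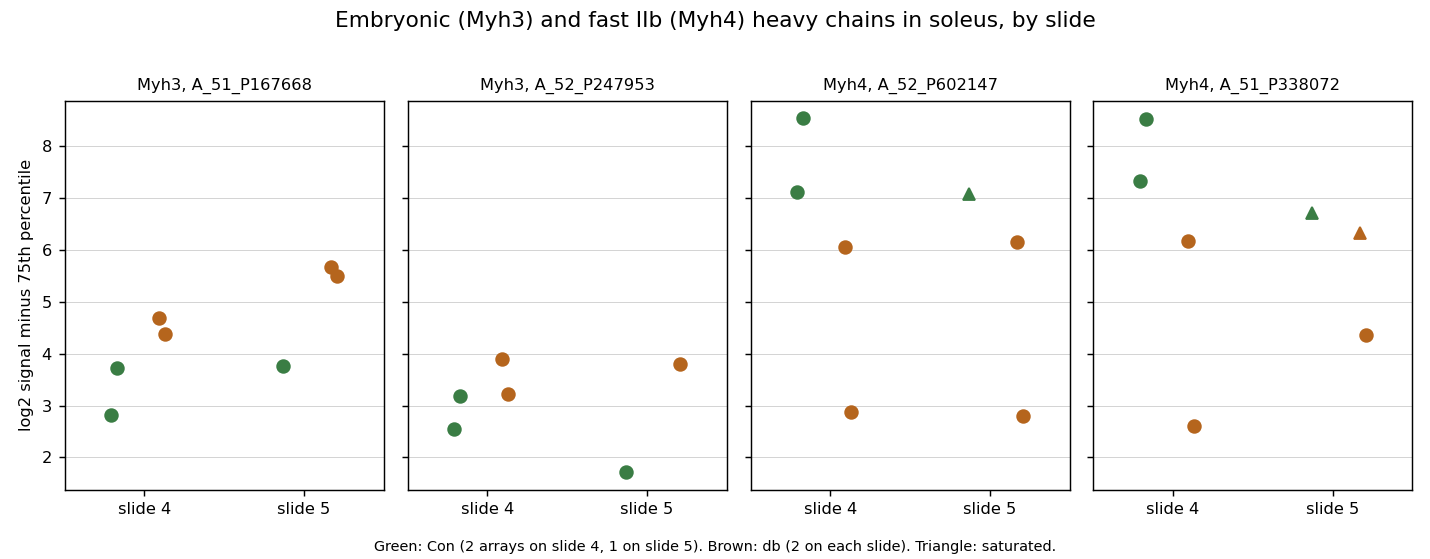
The 2 Myh3 probes and the 2 Myh4 probes on each soleus array, split by slide (x axis); the y axis is log2 signal minus the 75th percentile of the array, green points are Con, brown points are db and triangles are saturated spots. Within each slide the db points lie above the Con points for Myh3 and below them for Myh4, except that saturated spots of A_51_P338072 on slide 5 have no order, and the db points for Myh4 spread over 3 log2 units.

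The chains that fill the adult soleus sat at the top of the scanner range. Myh7 A_51_P143162 was saturated on all 7 soleus arrays, at intensities of 63139 to 105271 in Con and 72630 to 102796 in db muscle, and so were the Myh2 probes A_51_P225134 and A_52_P552036. Myh1 A_51_P192042 was saturated on all 3 Con and 2 of 4 db arrays, and Myh7 A_52_P88033 on 3 of each. A difference between Con and db could not be read from these probes. Less bright probes of Myh2 and Myh1 gave a reading, while Myh7 had no such probe. Myh2 A_52_P582746, designed on an Ensembl transcript, read 0.923, 0.995 and 1.34 in Con and 0.477, 0.552, 0.618 and -0.212 in db muscle, with no overlap (-0.73, SE 0.319, adjusted p = 0.776). Myh2 A_51_P395652 was saturated on 1 Con and 2 db arrays, the whole of slide 5, and could be read on slide 4 only. It differed by -0.26 over both slides (SE 0.474, adjusted p = 0.957). Myh1 A_51_P364788 read 1.31, 1.03 and 0.588 in Con and 0.884, 0.329, -1.31 and -1.71 in db muscle, a difference of -1.43 (SE 0.650, adjusted p = 0.785) with overlap.

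Myh6 gave bright signals in soleus on both probes, which are printed because the cardiac alpha chain is not a usual soleus chain.
Myh6 A_51_P512210, chr14:55563592-55565177, minus strand, across a junction: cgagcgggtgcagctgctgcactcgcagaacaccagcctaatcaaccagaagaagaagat
Myh6 A_52_P117510, chr14:55565256-55565315, minus strand: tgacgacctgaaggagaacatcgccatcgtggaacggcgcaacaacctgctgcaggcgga
Probe A_51_P512210 read 6.90, 6.51 and 4.61 in Con and 8.20, 7.49, 5.64 and 5.60 in db muscle. Values were lower on slide 5 in both groups, and within each slide both db arrays were above the Con arrays, by 1.14 and 1.00. The difference was 0.72 (SE 0.808, adjusted p = 0.926) and with the slide as a block 1.08 (SE 0.241, adjusted p = 0.123). Probe A_52_P117510, saturated on 2 db arrays, differed by 0.36 (SE 0.480, adjusted p = 0.941), with 1 Con spot left out as an outlier, and by 0.93 within slide 4 and -0.21 within slide 5, where both db spots were saturated. Of 5 cardiac markers, Myl7 and Nppa were well above background on no Con array and 2 others on all of them, and the mean of the 5 lay between -3.06 and -2.40 in Con and between -2.81 and -2.15 in db muscle. Myh6 and Myh7 lie side by side on chromosome 14 and share most of their coding sequence, and how far these probes read Myh7 transcripts was not tested.

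Of the Myh8 probes, A_51_P143296 was saturated on all 7 soleus arrays, at 63608 to 69984. A_52_P224283 and A_51_P239800 were well above background on none, with intensities of at most 9.49, and A_52_P363051 was on 2 db arrays, with at most 59.4. The saturated probe is the one that shares 19 bases with the Myh1 probe above, and what it binds in muscle was not tested. One of the dim probes is printed for comparison. Its longest run of bases shared with a probe of another member was 8.
Myh8 A_52_P224283, chr11:67098388-67098447, plus strand: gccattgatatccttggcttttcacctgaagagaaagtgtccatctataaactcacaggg

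**Figure D4:**
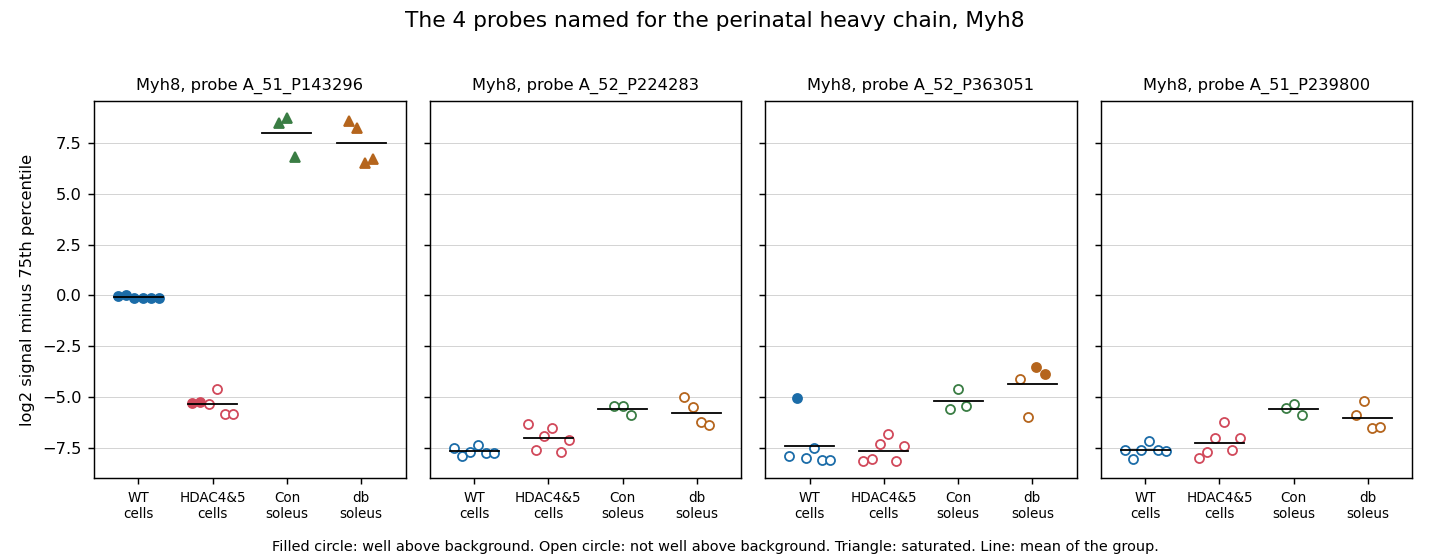
The 4 probes named Myh8 on each array of the 4 groups; the y axis is log2 signal minus the 75th percentile of the array, open circles are arrays not well above background, triangles are saturated spots and lines are group means. A_51_P143296 is saturated on all 7 soleus arrays, while A_52_P224283 and A_51_P239800 are not well above background on any array.

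No non-muscle chain was called in soleus, which does not show that the groups were alike. Myh10 A_51_P193612 read 1.20, 0.787 and 1.34 in Con and 2.55, 1.36, 1.43 and 1.52 in db muscle, with no overlap (0.60, SE 0.377, adjusted p = 0.872), and without db replicate 1 the difference was 0.33. It was 0.96 within slide 4 and 0.13 within slide 5. Myh10 A_52_P680681 differed by 0.69 (SE 0.477, adjusted p = 0.887) with overlap. Myh9 A_51_P313711, without the db array whose spot was an outlier, differed by -0.11 (SE 0.374, adjusted p = 0.981). Both genes are active in many cell types. The mean of smooth muscle markers was 2.63 to 3.54 in Con and 1.65 to 2.81 in db muscle. Endothelium lay at 1.27 to 2.14 and 0.459 to 1.31, erythrocytes at 2.34 to 3.37 and 1.09 to 2.22, and adipocytes at 2.71 to 3.79 and 3.62 to 4.11. Fibroblasts lay at 4.51 to 5.55 and 3.37 to 5.42, macrophages at -0.495 to 0.402 and -0.214 to 0.622, and nerve at -1.71 to -1.46 and -2.65 to -0.505. Myoblast markers lay at 0.175 to 0.352 and -0.044 to 0.170, with Myf5 well above background on no soleus array. Among these other cells, the Con and db ranges overlapped for all but erythrocytes and myoblasts, and those of myoblasts were only just apart. Their part in the values of Myh9 and Myh10 was not tested.

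No probe of the partner lists was called in db muscle, out of 15 for light chains (median -0.199), 21 for binding and M-band proteins (-0.333), 11 for chaperones (0.003), 16 for kinases and phosphatases (-0.165) and 2 for other heavy chains (-0.258), against a median of 0.020 over all probes.

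The genes whose pattern was most like that of a member were taken over the 7 soleus arrays by Pearson correlation, among 11944 to 13248 genes well above background on all arrays used. The arrays share 2 slides and the values carry the brightness of each, so the correlations are given as a description. Myh3 was closest to Klf6 (r = 0.994), Pofut2 (0.980) and Zc2hc1c (0.980). Myh4, by its probe A_51_P338072, which was saturated on 2 arrays, was closest to Mlxipl (0.982), Tars2 (0.977) and Cyp2d22 (0.977). Myh10 was closest to Nlrx1 (0.994), Trim11 (0.983) and Neurl1a (0.970). Over the 6 arrays without an outlier spot, Myh9 was closest to Tent4a (0.987), Tmem263 (0.985) and Col8a1 (0.984). Myh6, likewise over 6 arrays, was closest to Hmces (0.995), Srrt (0.989) and Mrpl38 (0.989). Its probe here, A_52_P117510, was saturated on 2 of them. For Myh1, Myh2, Myh7 and Myh8 the brightest probe was saturated on 5 to 7 arrays, and no genes are named.

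The third comparison set the level of each heavy chain in control muscle against that in control cells. Con soleus exceeded WT C2C12 cells on 14 of 19 tested probes, from 7 genes, and none was lower. Over all 22639 probes tested 74.2% were called, 34.4% higher and 39.9% lower, and 65.4% with the slide as a random block. The groups did not overlap on 14 member probes and on 69.1% of all. Cells and muscle never shared a slide, so slide and tissue cannot be told apart, and RNA was extracted by different methods from the 2 sources.

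The adult fibre chains were all higher in muscle. Myh2 was at least 8374-fold higher in muscle on the probe A_51_P395652, which was well above background on no WT array and saturated on 1 Con array (adjusted p = 6.21e-11). Myh4 was 13.10 log2 units higher (SE 0.327, adjusted p = 2.69e-10) on A_52_P602147, where only 2 of 6 WT arrays were well above background. Myh7, saturated on every Con array, was at least 3811-fold higher on A_51_P143162 (adjusted p = 1.38e-10). Myh1 was at least 312-fold higher on A_51_P192042 (adjusted p = 7.02e-09), and on A_51_P364788, which was not saturated, the difference was 6.30 (SE 0.222, adjusted p = 2.37e-09). Myh6 was at least 3375-fold higher on A_51_P512210 (adjusted p = 9.05e-10) and at least 6869-fold on A_52_P117510 (adjusted p = 6.94e-11), and Myh8 at least 276-fold on A_51_P143296 (adjusted p = 1.02e-08), with the limits on these probes given above. Most of these folds are lower bounds and give no order of the genes.

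The embryonic and non-muscle chains had smaller measured differences. Myh3 was 0.90 higher in Con soleus on A_51_P167668 (SE 0.208, adjusted p = 0.00271) and 0.49 higher on A_52_P247953 (SE 0.262, adjusted p = 0.115). Myh9 differed by -0.14 (SE 0.292, adjusted p = 0.685) on its bright probe, saturated on 5 WT arrays, and by -0.95 (adjusted p = 0.153) on the other. With quantile scaling both were called lower in muscle (-1.18, adjusted p = 4.60e-04, and -1.66, adjusted p = 0.0170). Myh10 differed by 0.13 (SE 0.147, adjusted p = 0.448) and 0.09 (SE 0.267, adjusted p = 0.780). On the Myh3 probe A_51_P167668 the order of the group means was thus HDAC4&5 cells (-6.18 ± 0.78, SD, n = 6), WT cells (2.54 ± 0.08, n = 6), Con soleus (3.44 ± 0.53, n = 3) and db soleus (5.06 ± 0.63, n = 4), and of the neighbours in it Con and db did not differ by the test.

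The partner lists were counted in the same way, against 34.4% higher and 39.9% lower among all probes. Light chains were higher on 11 and lower on 1 of 15 probes (median 1.20, against -0.158 over all probes), and binding and M-band proteins on 19 and 2 of 22 (median 6.22). Rises were seen in Myl2, the slow regulatory chain, at least 3328-fold, and in Mybpc1, the slow binding protein C (13.98, SE 0.532, on a probe well above background on 1 WT array). Of the 2 probes of Myl12b, a non-muscle regulatory chain, A_52_P222891 fell (-1.87, SE 0.193). The other, A_52_P222888, is among the rises counted and read 3.12-fold higher in muscle (adjusted p = 0.00878). It was saturated on all 6 WT arrays, which holds the WT reading down, so the direction of its difference could not be read. Both probes of Mybph fell (-2.62, SE 0.327 and -2.01, SE 0.477). Chaperones were higher on 6 and lower on 2 of 11 probes, kinases and phosphatases on 9 and 6 of 17, so that 8 of the 11 chaperone probes were called where 74.2% of all probes were. Myh11 of smooth muscle and Myh14, the non-muscle IIC chain, were both higher, at least 58.4-fold and by 7.88 (SE 0.160). Apart from A_52_P222888, the probes named here had an adjusted p of at most 0.00314.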

How the data were processed

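RNA (100 ng) was labelled with Cy3 and hybridised to 1-colour Agilent arrays. The authors scanned them and deposited, from Feature Extraction 9.5.1.1, the intensity of each spot as mean, local background and background-subtracted, detrended processed signal, with flags. The authors also deposited a matrix holding a ratio of the processed signal to a constant per array. Its db columns fit scanner files of other db numbers, and 4 soleus columns fit none closely (0.229 to 0.296 log2 units apart in median), so this matrix served only as an alternative, with columns taken by group. The number of arrays limits the precision.

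Processed intensities were scaled to the 75th percentile of each array (log2). Control and outlier spots were left out, saturated spots kept and spots of a probe averaged. Of all probes, 27198 were renamed where needed through RefSeq accessions and 13976 kept the file's name. Probes well above background on every array of 1 group were fitted with limma 3.58.1 (R 4.3.3), p adjusted over all of them. A probe dim on all arrays of its lower group, or saturated on all arrays of its higher group, is given as "at least N-fold". Dim values were raised to the lowest measurable signal of their array. On simulated data with 200 probes changed by 2 log2 units, 99% were recovered in cells, 28.5% in soleus and 79.5% between them. Sequences were taken from the scanner files (mm9) and RefSeq.

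Same-numbered samples correlated in their deviations from the group means (0.229 to 0.587 in cells, 0.354 to 0.659 in soleus), as did other samples of the same slide (0.221 to 0.544 and 0.262 to 0.730), since numbers follow slides; the numbers were therefore treated as pairs in an alternative. Members, lists and motifs were chosen with earlier results of these data known. All probes of each member are named; of the lists, at most 3 called rises and 3 called falls per list and comparison, and 3 genes most like each member, leaving out clone and unnamed loci. Pvalb and Actn3 (from the fibre markers) and the uncalled Myl3 probe were picked after their values were seen. Alternatives covered background correction, scaling, filters, saturated spots, probe choice, the matrix, the methods' t-test, blocks and left-out arrays or slides.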

Additional observations from a re-analysis of the deposited data

Results flagged for a closer look

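Of 30 groups of 4 to 6 arrays tested for a single array far from the rest, 2 stood out, and chance gives about 1.5. On the Myh2 probe A_52_P582746, db replicate 4 was lowest at -0.212118, with the nearest db array at 0.477. On the Myh10 probe A_51_P193612, db replicate 1 was highest at 2.54867, with the nearest at 1.52. Neither spot was saturated. Neither probe was called between Con and db.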

How the results depend on the processing

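In HDAC4&5 against WT cells, 8 member probes were called. The count was 14 with no filter on dim probes, 4 when probes had to be well above background throughout both groups, 5 with the brightest probe per gene, and 5 with the mean of all probes of a gene, the last 2 being counts of genes. It was 9 with the replicate number as a block and 8 without each slide. In db against Con soleus the count stayed at 0 in every alternative, the replicate block included, while calls over all probes went from 1 to 29 with slide as a block, 2 with quantile scaling and 3 with the methods' t-test after Benjamini-Hochberg; no array left out gave a member call. Pairing by replicate number changed no other call than that of Myh9 A_52_P130899 in cells. In Con soleus against WT cells the count of 14 became 5 under the stricter filter, 8 without saturated spots, 7 with the brightest probe, 7 with the mean, and 4 in the deposited matrix, which is blank for many dim and saturated spots. It was 14 to 15 without each Con array. Without a filter, calls over all probes rose from 16803 to 32617 there, and with the mean of all probes they fell from 14673 to 9655 in cells.

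Some differences not called under the main setting changed sign. In cells they were Myh9 A_52_P130899, at 0.18 with normexp, and Myh9 A_51_P313711, at -0.059 with quantile scaling. In soleus, Myh2 A_51_P395652 came to 0.057 with normexp, 0.035 without saturated spots and, leaving out each array in turn, between -0.56 (db replicate 1) and 0.059 (Con replicate 1), and Myh9 A_51_P313711 to 0.21 in the matrix and between -0.41 (without db replicate 4) and 0.13 (without db replicate 2). Between soleus and cells, Myh9 A_52_P130899 came from -0.95 to 0.29 and Myh10 A_52_P680681 to -0.085 with normexp, Myh10 A_52_P680681 to between -0.29 (without Con replicate 3) and 0.45 (without Con replicate 2), and Myh10 A_51_P193612 to -0.071 in the matrix. The causes were not tested.

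Under quantile scaling, which moved the median of all probes from -0.158 to -0.440 in that comparison, both Myh9 probes were called lower in muscle (-1.18 and -1.66). Under normexp the higher share of all calls there went from 46.3% to 58.3% (72.3% with no filter), and Myh3 A_51_P167668 lost its call (0.56, adjusted p = 0.0610). Myh3 A_52_P247953 gained one without Con replicate 3 (0.87, adjusted p = 7.13e-04), and Myh10 A_51_P193612 without Con replicate 2 (0.29, adjusted p = 0.0439). The higher share of calls in cells was 53.4%, and 39.4% in the matrix. Called probes for binding and M-band proteins in cells went from 18 to 7 with normexp, with Myh14 no longer called. Saturation limits Myh7, Myh2, Myh1 and Myh8 in muscle and Myh9 in cells.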
